A study of Homo sapiens with 8 samples.

Results

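The spindle midzone and cytokinesis genes described here are NUSAP1, TPX2, PRC1, HMMR, CDCA8, BIRC5, ANLN, ECT2, RACGAP1 and CDCA3. They were taken by gene symbol from the deposited array table, in which each of the 10 genes has 1 probe among 20589 probes. The cells were MCF10A-5E, a clone of the immortalised, non-tumorigenic human breast epithelial line MCF10A. They were grown on Matrigel in medium with horse serum, EGF, insulin, hydrocortisone and cholera toxin until day 6 of morphogenesis, when they form spherical acini. Outer cells, attached to the extracellular matrix, were set against inner cells without that attachment, about 50 cells per sample laser-microdissected out of 8 µm sections. RNA amplified by poly(A) PCR was hybridised to HumanRef-8 v2.0 BeadChips from Illumina, with 4 arrays for the outer and 4 for the inner cells.

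When chromosomes separate at anaphase, microtubules between them are bundled into the spindle midzone. The chromosomal passenger complex and the centralspindlin complex gather there, and centralspindlin recruits the activator of RhoA, which drives assembly of the actin and myosin ring that cleaves the cell. Transcripts of this machinery build up in G2 and mitosis and fall again after division, so their level in a sample of cells follows both how many cells are dividing and how much of each transcript those cells hold. In RNA of pooled cells, fewer cells of a kind and less RNA per cell cannot be told apart.

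Each array detected 6429 to 7000 probes at a detection p below 0.01, with array means of 344.4 to 533.0 intensity units. Of 18 epithelial marker genes, 13 to 15 were detected on outer arrays and 13 to 14 on inner arrays. Their summed level, in multiples of the mean intensity of the array, was 79.6 to 85.1 on outer arrays and 67.9 to 74.4 on inner arrays, without overlap. Of 12 fibroblast genes 3 to 5 were detected on outer and 3 to 4 on inner arrays, with sums of 8.71 to 20.3 and 11.5 to 18.1. Of 17 leukocyte genes 2 to 4 were detected in both groups. Their sums were 2.01 to 2.49 on outer and 1.96 to 4.39 on inner arrays. CD68 and ITGAX were each detected on 4 outer and 4 inner arrays. CSF1R was detected on 3 outer and 2 inner arrays, CD14 on 0 and 3, and 1 probe of PTPRC on 1 and 0. CD3D and LYZ were detected on 0 arrays. Of 12 endothelial genes 1 to 2 were detected on outer and 0 to 1 on inner arrays, with sums of 1.27 to 1.48 and 1.33 to 1.54. ENG was detected on 4 outer and 3 inner arrays, and 1 probe of ERG on 3 outer and 0 inner arrays. PECAM1, CDH5 and VWF were detected on 0 arrays. The part of these markers in the differences below was not tested. Nothing in the labels says that the samples came from separate cultures. The p-values therefore cover the spread among these samples alone, possibly a technical one, and the number of arrays limits the precision.

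The promoters of these genes are shown because they carry a feature that the choice of genes did not use. RefSeq promoter sequences (GRCh38.p14, 250 bases before to 50 bases after the transcription start) were found for 7 of the 10 genes, NUSAP1, PRC1, HMMR, CDCA8, ANLN, ECT2 and CDCA3, and none is listed for TPX2, BIRC5 and RACGAP1. They were searched on both strands for TTTGAA, the core of the cell cycle genes homology region through which G2 and mitosis genes are held silent in resting cells, and for CCAAT, the box bound by NF-Y. Capitals mark both motifs in the 150 bases from 120 before to 30 after the start of 6 genes, written 5′ to 3′ on the strand of the gene.
NUSAP1, chr15:41332761-41332910, plus strand: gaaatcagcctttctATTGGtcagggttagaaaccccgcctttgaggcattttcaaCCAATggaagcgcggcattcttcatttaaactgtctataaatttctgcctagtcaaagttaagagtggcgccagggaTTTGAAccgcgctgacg
PRC1, chr15:90994506-90994655, minus strand: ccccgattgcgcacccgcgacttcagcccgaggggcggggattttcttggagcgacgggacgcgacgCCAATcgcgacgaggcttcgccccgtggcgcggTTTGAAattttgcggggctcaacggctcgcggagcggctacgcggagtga
HMMR, chr5:163460512-163460661, plus strand: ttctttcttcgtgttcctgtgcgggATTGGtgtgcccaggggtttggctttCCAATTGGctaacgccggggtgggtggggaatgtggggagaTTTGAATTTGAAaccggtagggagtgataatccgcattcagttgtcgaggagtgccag
CDCA8, chr1:37692396-37692545, plus strand: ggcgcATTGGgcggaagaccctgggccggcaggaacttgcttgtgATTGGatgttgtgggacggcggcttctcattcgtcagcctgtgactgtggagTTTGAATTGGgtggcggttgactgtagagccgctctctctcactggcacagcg
ANLN, chr7:36389742-36389891, plus strand: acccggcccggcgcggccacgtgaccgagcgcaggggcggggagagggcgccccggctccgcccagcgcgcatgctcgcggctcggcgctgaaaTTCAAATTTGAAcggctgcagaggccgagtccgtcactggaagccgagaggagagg
CDCA3, chr12:6851257-6851406, minus strand: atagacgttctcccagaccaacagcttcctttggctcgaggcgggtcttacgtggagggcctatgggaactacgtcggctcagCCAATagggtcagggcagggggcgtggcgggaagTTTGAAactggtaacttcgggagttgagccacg

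TTTGAA lay in this window in 7 of the 8 promoters listed for these 7 genes, whereas 7.1% of all 35116 promoters in the table hold it in the same window. ECT2 has 2 listed starts, the first with TTTGAA at positions -115 to -110 and the second with none in the window. In the 6 printed windows it stood between positions -28 and 19, counted from 1 at the start with no position 0. HMMR held it in tandem, and ANLN held it on both strands side by side. CCAAT, or ATTGG on the other strand, lay in the window in 6 of the 8 promoters, all but that of ANLN and the second of ECT2, against 22.4% of all promoters. In HMMR a CCAAT overlapped an ATTGG by 2 bases, and in CDCA8 an ATTGG overlapped the end of TTTGAA by 1 base. A match describes letters only. All 7 genes with a listed promoter held TTTGAA, so their values below cannot be compared with genes of the set that lack it. A relation of either motif to the outer minus inner differences was not tested.

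The comparison asks how outer cells attached to the matrix differ from inner cells of the same acini. Of the 10 genes, 8 were detected on all 8 arrays and tested. ECT2 and RACGAP1 were detected on 0 arrays. NUSAP1 was the 1 gene whose outer arrays all lay above its inner arrays, at 2.40-fold higher. That is 1.26 on the log2 scale, or 0.97 with the on-grid background described below, and neither difference passed the adjusted threshold. PRC1, CDCA3, ANLN, BIRC5 and TPX2 had positive outer minus inner differences, and HMMR and CDCA8 had negative ones, with groups that overlapped and none past the adjusted threshold. The plot of intensities by array shows each deposited value.

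**Figure D1:**
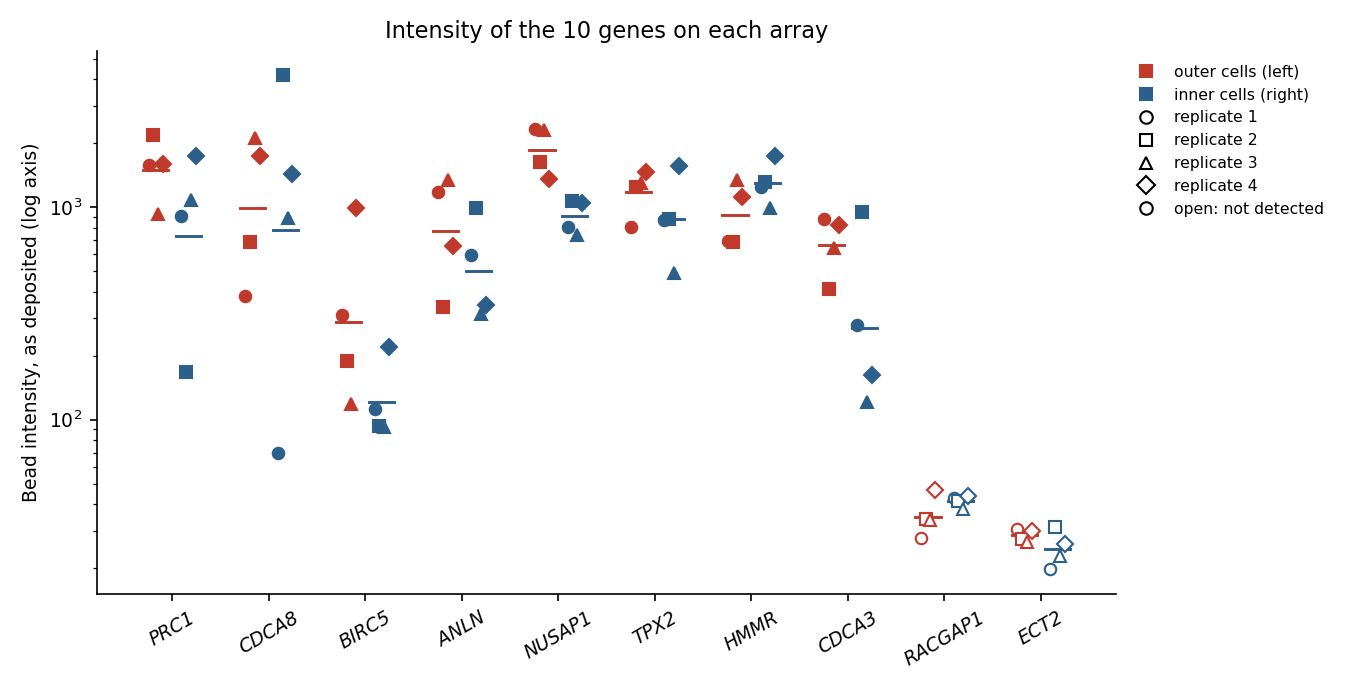
Deposited bead intensity (log axis) of each gene on the 4 arrays of outer cells (red, left) and the 4 arrays of inner cells (blue, right), with a bar at the geometric mean, marker shapes for replicate numbers, and open markers where the probe was not detected. NUSAP1 has outer arrays at 1352 to 2322 and inner arrays at 742 to 1067, CDCA8 spans 69.6 to 4167 on inner arrays, and RACGAP1 and ECT2 are open on every array.

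NUSAP1 binds and bundles microtubules around chromosomes in mitosis and stays on the central spindle. Its intensity was 2322, 1632, 2299.75 and 1352 on the outer arrays, against 803, 1067, 742 and 1051 on the inner arrays. Even the lowest outer array, replicate 4, was above the highest inner array, replicate 2. After background correction and quantile normalization the log2 intensity was 10.45 ± 0.36 in outer cells and 9.18 ± 0.40 in inner cells (SD, n = 4 each). Outer minus inner was 1.26 (standard error 0.25) with a 95% interval of 0.66 to 1.86, and it missed the threshold after adjustment over all 6698 tested probes (limma, adjusted p = 0.232). Among all tested probes 0.0149% passed the adjusted threshold of 0.05, 1 probe in all, and of the 8 tested genes 0 did. NUSAP1 was also the 1 of 8 genes with an unadjusted p below 0.05, where 8.06% of all probes had one, and the 1 of 8 with separate groups, where 2.57% of all probes had outer arrays all above inner arrays and 2.69% had them all below. Over 19 other settings its difference stayed positive, from 0.96 with no background correction to 1.43 without outer replicate 4.

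TPX2, which activates Aurora A and starts microtubule growth around chromosomes, had intensities of 809, 1245, 1297 and 1469 on outer arrays, against 869, 883, 489 and 1570 on inner arrays. Both the highest and the lowest of the 8 arrays were inner ones, replicates 4 and 3, so that the groups overlapped. The log2 intensity was 9.58 ± 0.64 in outer cells and 9.21 ± 0.95 in inner cells (SD, n = 4 each). The difference of 0.38 (standard error 0.53) did not exceed the spread between arrays (limma, adjusted p = 0.927), and it was 0.04 without inner replicate 3, the lowest array, and 0.75 without inner replicate 4, the highest.

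HMMR, also called RHAMM, is a microtubule-associated protein of spindle poles that works with TPX2, and was first described as a receptor for hyaluronan. Its intensity was 691, 688, 1346 and 1118 on outer arrays, against 1239, 1310, 991 and 1746 on inner arrays. Outer replicates 1 and 2 lay below every inner array, while outer replicates 3 and 4 lay among them. On the log2 scale HMMR was at 9.14 ± 0.62 in outer cells and 9.85 ± 0.67 in inner cells (SD, n = 4 each). Outer minus inner was -0.71 (standard error 0.42) with a 95% interval of -1.71 to 0.28 (limma, adjusted p = 0.742), the most negative of the 8. It was negative in all 19 other settings, from -0.94 without inner replicate 3 to -0.48 without outer replicate 1. HMMR and TPX2, which act together at the spindle, had differences of opposite sign, but both intervals included 0. That of TPX2 was -0.87 to 1.62. The contrast between HMMR and TPX2 was not tested.

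PRC1 crosslinks antiparallel microtubules and is the scaffold of the midzone. Its intensity was 1571, 2193, 926 and 1602 on outer arrays, against 905, 168, 1082 and 1739.96 on inner arrays. The inner array of replicate 2 stood far below the other 7 arrays, while inner replicate 4 lay above 3 of the 4 outer arrays. On the log2 scale PRC1 was at 10.03 ± 0.80 in outer cells and 9.29 ± 1.24 in inner cells (SD, n = 4 each). The difference of 0.75 (standard error 0.68; limma, adjusted p = 0.842), varied with single arrays, being 0.18 without inner replicate 2 and 1.16 without inner replicate 4.

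The chromosomal passenger complex carries the kinase Aurora B from centromeres to the midzone, and survivin (BIRC5) and borealin (CDCA8) are subunits that bring it there. BIRC5 had intensities of 311, 188, 119 and 987 on outer arrays, against 113, 93.8, 92.6 and 221 on inner arrays. Outer replicate 4 was far above all others. Inner replicate 4, the highest inner array, exceeded outer replicates 2 and 3. On the log2 scale BIRC5 was at 8.11 ± 0.83 in outer cells and 7.60 ± 0.13 in inner cells (SD, n = 4 each), which differ by 0.50 (standard error 0.39; limma, adjusted p = 0.820). Without outer replicate 4 the difference was 0.09. The small inner SD depends on the background. With the on-grid background described below, the SD was 1.41 in outer cells and 0.91 in inner cells.

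CDCA8 varied most. Its intensity was 381, 687, 2120.33 and 1732 on outer arrays, against 69.6, 4167, 889 and 1430.42 on inner arrays, so that both the lowest and the highest of the 8 arrays were inner ones. In deposited intensity the outer arrays differed 5.57-fold among themselves and the inner arrays 59.9-fold. Its log2 intensity was 9.44 ± 1.29 in outer cells and 9.55 ± 1.72 in inner cells (SD, n = 4 each). They differ by -0.11 (standard error 0.99; limma, adjusted p = 0.997), with a 95% interval of -2.44 to 2.22 that leaves the direction unknown. The direction turned in 7 of 19 other settings, among them 0.55 without inner replicate 2. On inner replicate 2, where CDCA8 was at its highest, BIRC5 and PRC1 were at their lowest normalized inner values.

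Aurora B itself (AURKB) was detected on all arrays, at 878, 367, 301 and 685 on outer arrays and 115, 550, 335 and 228 on inner arrays. Outer replicates 2 and 3 lay among the inner arrays. Outer minus inner was 0.51 on the log2 scale (standard error 0.24; limma, adjusted p = 0.665), and 0.95 with the on-grid background described below. INCENP, the scaffold of the complex, was detected on 0 arrays.

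Centralspindlin is made of the kinesin KIF23 and RACGAP1, which binds and activates ECT2, the exchange factor that loads RhoA with GTP at the cell equator. The probe of RACGAP1 gave intensities of 27.8 to 46.7 on outer arrays and 38.0 to 43.8 on inner arrays, with detection p of 0.0819 to 0.839 and 0.0410 to 0.298. That of ECT2 gave 26.5 to 30.6 on outer arrays and 19.8 to 31.2 on inner arrays, with detection p of 0.706 to 0.822 and 0.767 to 0.993. Neither was above background, so no fold is given. A probe that misses detection does not show that the gene is silent. KIF23 was detected on all 8 arrays by 1 of its probes, at 1035, 453, 1177 and 747 on outer arrays and 199, 717, 269 and 63.7 on inner arrays. Only inner replicate 2 reached the range of the outer arrays. Outer minus inner was 1.06 on the log2 scale (standard error 0.29; limma, adjusted p = 0.402), and 1.95 with the on-grid background. A second KIF23 probe was detected on 0 arrays, with a highest intensity of 43.8.

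ANLN, anillin, links actin, myosin, septins and RhoA in the contractile ring. Its intensity was 1173, 339, 1341 and 653 on outer arrays, against 595, 988, 313 and 346 on inner arrays. Outer replicate 2 lay among the lowest inner arrays and inner replicate 2 among the highest outer arrays. Its log2 intensity was 8.94 ± 0.74 in outer cells and 8.42 ± 0.54 in inner cells (SD, n = 4 each), which differ by 0.52 (standard error 0.42; limma, adjusted p = 0.825). It was 0.26 without outer replicate 3 and 0.82 without outer replicate 2.

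CDCA3, also called TOME-1, takes part in the destruction of the mitosis inhibitor WEE1 and so acts at mitotic entry rather than at the midzone. Its intensity was 883, 413, 643 and 826 on outer arrays, against 279, 948, 121 and 163 on inner arrays. In deposited intensity inner replicate 2 was the highest of all 8 arrays, and the other 3 inner arrays lay below every outer array. On the normalized log2 scale outer replicate 4 was the highest, at 9.05, with inner replicate 2 at 8.83. Its log2 intensity was 8.63 ± 0.37 in outer cells and 8.02 ± 0.58 in inner cells (SD, n = 4 each). Outer minus inner was 0.62 (standard error 0.32) with a 95% interval of -0.13 to 1.37 (limma, adjusted p = 0.699). Without inner replicate 2 it was 0.89 (adjusted p = 0.376), still short of the threshold, and without inner replicate 3 it was 0.46.

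Of the 8 tested genes 6 had a positive difference and 2 a negative one, with a median of 0.51 on the log2 scale. Of all tested probes 50.6% had a positive difference, with a median of 0.00. The median over the 8 genes was 0.34 to 0.59 when 1 array was left out, and 0.77 with the on-grid background described next. The differences depend on how the background is estimated, also for probes that are not dim. The fit takes it from the detection p of all probes, which draws dim values together. With the background taken from 19054 probes alone, those with detection p in whole steps of 1 in 708 (the on-grid background), the difference was 1.31 for BIRC5 with a standard error of 0.76, 1.33 for CDCA3 with a standard error of 0.62, and 0.35 for CDCA8 with a standard error of 1.22. The other 5 genes moved by less than 1.5 times, NUSAP1 to 0.97, and 0 of the 8 passed under this background (limma, adjusted p from 0.431 to 0.970). The plot of differences shows both sets of values.

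**Figure D2:**
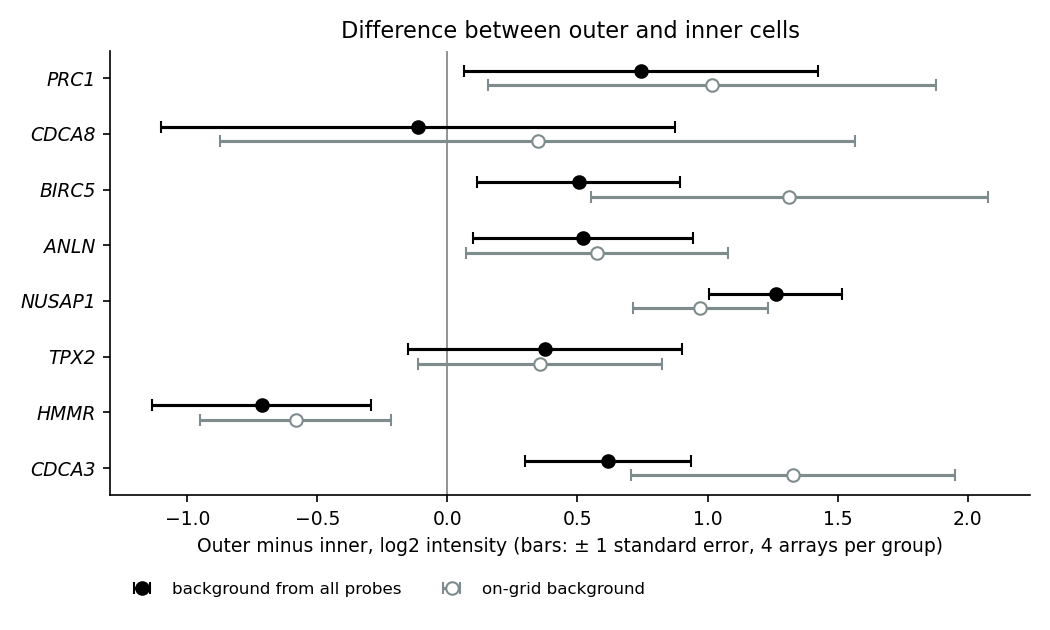
Outer minus inner log2 intensity of the 8 tested genes, with bars of 1 standard error (4 arrays per group), for the background from all probes (filled) and from on-grid probes (open). NUSAP1 is at 1.26 and 0.97, HMMR is below 0 under both, and CDCA8 has the widest bars and changes sign.

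In deposited intensity, which includes the brightness of each array, the highest array of a group was 1.44 to 59.9 times the lowest for the 8 tested genes, and more than 2 times in 11 of 16 groups of 4. On the normalized log2 scale the SD within groups exceeded the median of all tested probes, 0.38, for each of the 8 genes. That comparison depends on level, since dim probes are drawn together. Among the 2819 probes in the same range of mean log2 intensity the median was 0.63, and 5 of the 8 genes exceeded it: TPX2, PRC1, HMMR, CDCA8 and ANLN. CDCA8, at 1.52, stood at the 99.7th percentile of all tested probes.

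The arrays differed in which of the 8 genes were high or low on them, and whether the genes move together was not tested. On inner replicate 3, 0 of the 8 genes lay above the median of the inner arrays, against 7 of 8 on inner replicate 1, 6 of 8 on inner replicate 4 and 3 of 8 on inner replicate 2. On outer replicates 1, 2, 3 and 4, 4, 2, 4 and 6 of the 8 genes lay above the median of the outer arrays. Among inner arrays, replicate 4 held the highest normalized value of NUSAP1, TPX2, PRC1, HMMR and BIRC5, and replicate 3 the lowest of NUSAP1, TPX2, HMMR, ANLN and CDCA3. Inner replicate 3 was also the array with the most detected probes, 7000, and the part of that in these values was not tested. Inner replicate 2 combined the highest CDCA8 and CDCA3 with the lowest PRC1 and BIRC5. Among outer arrays, replicate 3 held the highest NUSAP1, HMMR, CDCA8 and ANLN together with the lowest PRC1 and BIRC5, and replicate 4 the highest TPX2, BIRC5 and CDCA3 together with the lowest NUSAP1. The map of deviations sets these values side by side.

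**Figure D3:**
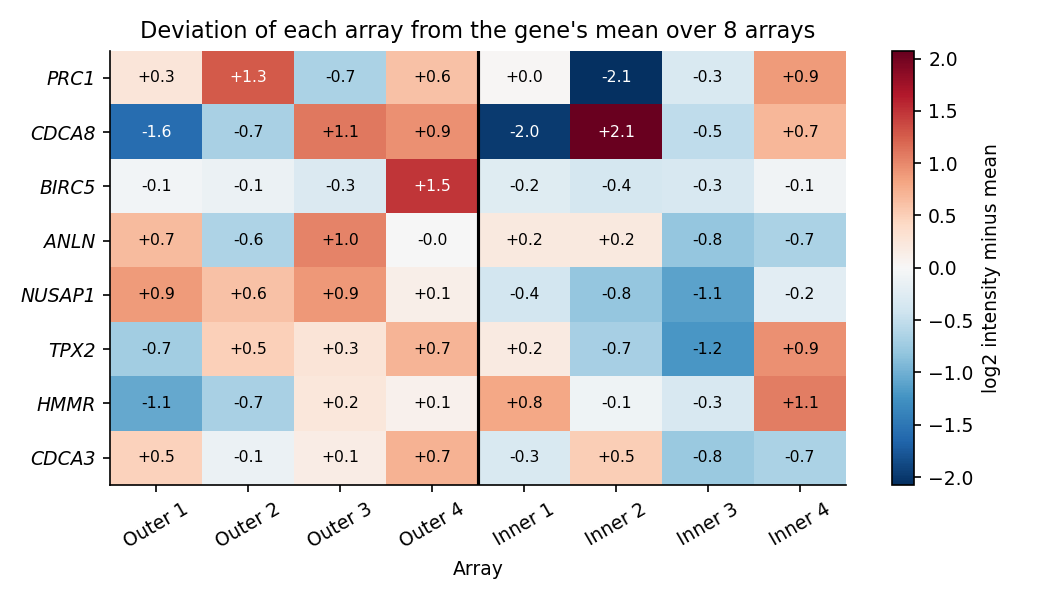
Deviation of the log2 intensity of each array from the mean of the gene over the 8 arrays, with outer arrays left of the line and inner arrays right of it. NUSAP1 is above 0 on the 4 outer arrays and below 0 on the 4 inner arrays, whereas in each other row both signs occur in at least 1 of the groups.

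The closeness of profiles was measured as the root mean square difference of log2 intensities over the 8 arrays, each probe centred on its mean. ANLN and CDCA3 were the nearest pair among the 8 genes, at 0.50, and PRC1 and CDCA8 the farthest, at 1.98. TPX2 and HMMR, whose differences had opposite signs, were at 0.65. Among the 8 genes ANLN was the nearest to NUSAP1, at 0.64, and 602 other tested probes were nearer than that. The 5 genes nearest to NUSAP1 over all tested probes were NAV1 at 0.24, CEP55 at 0.28, GDE1 at 0.29, EIPR1 at 0.29 and NCLN at 0.33. CEP55 is a midbody protein that recruits the abscission machinery at the end of cytokinesis. NAV1 is a microtubule-associated protein of the navigator family, GDE1 a glycerophosphodiester phosphodiesterase, and NCLN, nicalin, a membrane protein of the endoplasmic reticulum. Their log2 differences were 0.93, 1.04, 1.21, 0.77 and 1.29 in the same order. They were chosen for profiles over the same outer and inner arrays, which fixes the sign of these differences, so the values are a description.

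The other parts of the division machinery were read from lists of known partners. Of 107 partner genes on the array 77 were tested, and 0 passed the adjusted threshold. Their log2 difference was positive for 53 and negative for 24, with a median of 0.08. With the on-grid background it was positive for 49 and negative for 28, with a median of 0.19, against 0.01 over all tested probes. Unadjusted p was below 0.05 for 3 positive genes, KIF23, CEP55 and KIF15, where 3.84% of all probes were, and for 1 negative gene, HAUS1, where 4.23% were. KIF15 met the filter of 4 detected arrays mainly through outer arrays, 3 against 1 inner array, which favours a positive sign.

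Central spindle partners were tested for 6 of 10 genes, 5 with a positive and 1 with a negative difference and a median of 0.37, or 0.76 with the on-grid background. KIF20A, the kinesin that carries the passenger complex to the midzone, differed by 0.90 with a standard error of 0.42, and KIF4A, which binds PRC1 and sets the length of the midzone, by 0.38 with a standard error of 0.46. MYO9B, a myosin that turns off RhoA, differed by 0.36, and CLASP1, a stabiliser of microtubule ends, by -0.53 (limma, adjusted p from 0.665 to 0.897 for these 4). With the on-grid background KIF20A was at 0.70, KIF4A at 0.83, MYO9B at 0.19 and CLASP1 at -0.88. The kinase PLK1 was detected on 0 arrays.

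Of the RhoA and contractile ring genes 17 of 25 were tested, 12 positive and 5 negative, with a median of 0.09, or 0.19 with the on-grid background. The largest differences here were negative, -1.09 for DIAPH2, a formin, and -0.80 for ARHGEF2, an exchange factor for RhoA. RHOA differed by -0.01, SEPTIN9 by -0.12, the myosin chain gene MYH10 by 0.43, profilin (PFN1) by 0.14 and the myosin light chain MRLC2 by 0.21. None of these had an unadjusted p below 0.05. Their adjusted p ran from 0.700 to 0.998 (limma), and DIAPH2 was at -1.73 with the on-grid background.

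Midbody and abscission genes were tested for 27 of 32, 15 positive and 12 negative, with a median of 0.01. With the on-grid background this turned to 11 positive and 16 negative, with a median of -0.05. CEP55 had intensities of 1623, 1164, 1577 and 1037 on outer arrays, against 557, 596, 809 and 879 on inner arrays, so that its groups did not overlap. On the normalized scale 2 of the 77 tested partner genes had outer arrays all above inner arrays, where 2.57% of all probes did. The other was CFL1, of the contractile ring list, at a difference of 0.03. The opposite held for 0 of the 77, against 2.69% of all probes. CEP55 differed by 1.04 (standard error 0.24; limma, adjusted p = 0.294). The ESCRT genes, which sever the bridge between daughter cells, lay on both sides, with VPS25 at 0.82, CHMP4B at 0.26, CHMP5 at -0.34, VPS28 at -0.50 and SNF8 at -0.61 (limma, adjusted p from 0.630 to 0.894). With the on-grid background VPS25 was at 1.57 and CHMP5 at -0.90.

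Spindle assembly partners of TPX2, HMMR and NUSAP1 were tested for 26 of 35 genes, 20 positive and 6 negative, with a median of 0.11, or 0.36 with the on-grid background. HAUS1, a subunit of augmin listed as CCDC5, had intensities of 33.9, 201, 657 and 115 on outer arrays, against 398, 1776, 733 and 675 on inner arrays. Outer replicate 3 was the 1 outer array in the inner range. HAUS1 differed by -1.13 (standard error 0.40; limma, adjusted p = 0.515), and -2.55 with the on-grid background. KIF15, a spindle kinesin detected on 3 outer arrays and 1 inner array, differed by 0.39 (adjusted p = 0.605), and by 2.31 with the on-grid background. Aurora A (AURKA, listed as STK6), the partner of TPX2, differed by 0.56 and DLGAP5, a spindle protein regulated by it, by 1.08. FAM83D, a spindle partner of HMMR, differed by -0.58 and the importin KPNA2 by -0.38. TUBGCP5, of the gamma-tubulin ring complex, was detected on 4 outer arrays and 1 inner array and differed by 0.87, and by 3.26 with the on-grid background (limma, adjusted p from 0.641 to 0.842 for these 5). Its outer arrays alone met the detection filter, which favours a positive sign.

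**Figure D4:**
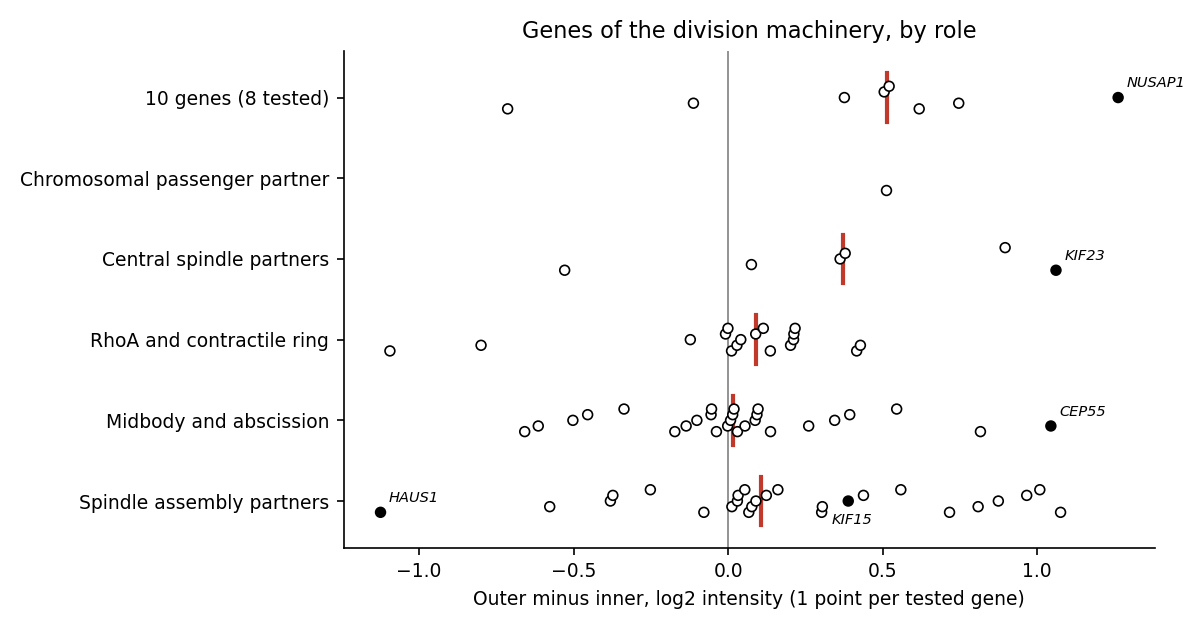
Outer minus inner log2 intensity of each tested gene (1 point per gene), for the 10 genes described here and for 5 lists of partners, with red bars at the median of each row of more than 1 gene and filled points for an unadjusted p below 0.05. NUSAP1, KIF23 and CEP55 are at the right, HAUS1 at the left, and medians range from 0.01 for midbody and abscission, which is -0.05 with the on-grid background, to 0.51 for the 8 tested genes, which is 0.77 with it.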

How the data were processed

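Per the file headers, the authors deposited a mean bead intensity per probe and array, which the values show to be neither background-subtracted nor normalized, with its bead standard error, its number of beads and a detection p-value. A further deposited column holds the ratio of intensity to array mean, which a recalculation matched. The scanning software is not given in the sources used here. Intensities, detection p and scaled values were each equal in the 2 tables that hold them. The authors' own ratios between layers were not used.

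Intensities went through neqc (limma 3.58.1, R 4.3.3; normexp with the background inferred from the detection p, offset 16, quantile normalization, log2). One probe lacking beads was left out. Probes with detection p below 0.01 on at least 4 arrays, 6698 for 6572 genes, were fitted with lmFit and eBayes, group alone as a term, outer minus inner, with Benjamini-Hochberg adjustment. Each list gene was read from its brightest tested probe. Symbols were updated through RefSeq names, and 25 turned into dates were repaired. The fit was tested on simulated data, with settings and an outcome that are not given here.

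The genes, lists and alternatives were chosen with earlier results of these data known. Named genes are the 10 genes, 7 fixed partners (AURKB, INCENP, KIF23, KIF4A, KIF20A, CEP55, AURKA), up to 3 list genes per direction with the smallest p, and the 5 profiles nearest to NUSAP1. PLK1, RHOA and CFL1 were added after their values were seen. Alternatives covered background, offset, scaling, detection filter, variance model, replicate block, averaged probes and each array left out. Replicate numbers do not pair the arrays by any label.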

Additional observations from a re-analysis of the deposited data

Results flagged for a closer look

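Among 116 groups of 4 values, 6 held an array standing well away from its 3 companions; about 1 in 20 groups would by chance. The log2 flags rest on the background from all probes, which draws dim values together. BIRC5 was at a log2 intensity of 9.34 on outer replicate 4, with the other outer arrays at 7.56 to 7.80. With the on-grid background that array was at 9.98 and the other outer arrays spread wider, from 6.61 to 7.91. KIF4A reached 9.61 on inner replicate 1, while the remaining inner arrays gave 7.66 to 7.98. Inner replicate 2 stood out for KIF15 (7.60, remaining inner arrays 7.42 to 7.44) and inner replicate 3 for TUBGCP5 (7.89, remaining inner arrays 7.42 to 7.43). For CSF1R, a leukocyte marker, inner replicate 4 gave 9.14 and the remaining inner arrays 7.41 to 7.49. Inner replicate 3 had 7000 detected probes, against 6570 to 6615 on the other inner arrays.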

How the results depend on the processing

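None of the 8 tested genes passed the adjusted threshold in any of 20 other settings, and 6 or 7 of the tested genes were positive in each of them. The median difference was 0.34 to 0.77 and kept its sign, and 0 partner genes passed in 19 settings. CDCA8 turned to 0.35 with the on-grid background, 0.29 with no background correction and 0.29 with the authors' scaled values, and lay between -0.79 and 0.55 when 1 array was left out; the cause was not tested. Over all tested probes 1 passed, against 4 with the on-grid background, 3 with no background correction, 3 with the authors' scaled values, 0 with each of 3 other detection filters (which changed the probes tested) and 0 to 3 when 1 array was left out. With the replicate number as a block 1 probe and 0 of the 8 genes passed, so that it changed no call. Deviations of same-numbered arrays correlated at -0.04 to 0.03 across probes, and 2 of 4 outer arrays correlated best with their own number. Per array the on-grid background averaged 31.1 to 38.5 (SD 6.24 to 12.4) and that from all probes 96.5 to 126.1 (SD 262.5 to 391.3). The median intensity per array was 36.2 to 46.2, below the background from all probes. This limits what can be read from dim probes such as that of BIRC5, and brighter probes moved as well. With the on-grid background CDCA3 went from 0.62 to 1.33, KIF23 from 1.06 to 1.95 and NUSAP1 from 1.26 to 0.97.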

Other observations

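Other genes of dividing cells were read from a reference list. Of 15 on the array 13 were tested, with 12 positive and 1 negative difference and a median of 0.16 on the log2 scale. With the on-grid background 13 were positive and 0 negative, with a median of 0.27. TYMS, thymidylate synthase, had an unadjusted p below 0.05 at 0.60, the cyclin CCNB2 differed by 0.34 and CKS1B, a partner of cyclin-dependent kinases, by 0.30, and the 1 negative gene was the helicase subunit MCM2 at -0.03, or 0.05 with the on-grid background (limma, adjusted p from 0.611 to 0.999). CCNB1, a mitotic cyclin, had the highest difference of the list, 0.75 with a standard error of 0.51, and TOP2A, a topoisomerase, differed by 0.03 with a standard error of 0.14. MKI67, the Ki-67 antigen, detected on 3 outer and 2 inner arrays, differed by 0.44, or 1.41 with the on-grid background. These 3 were chosen after their values were seen. Among marker genes of cell type the median log2 difference was -0.01 over 13 epithelial genes, 0.16 over 4 fibroblast genes, -0.10 over 3 leukocyte genes and -0.02 for the 1 endothelial gene tested. With the on-grid background these were -0.01, 0.29, 0.10 and -0.16 in the same order.

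Some bright probes were listed as not detected and so were not tested. A probe of PCNA, the sliding clamp of DNA replication, reached an intensity of 1571, and a probe of STMN1, a microtubule destabiliser, reached 1355, yet both had a detection p above 0.01 on all 8 arrays. The cause was not tested. The probes of ECT2 and RACGAP1 reached no more than 31.2 and 46.7.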
